A study of Drosophila melanogaster with 8 samples.

Results

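The heat shock protein genes of *Drosophila melanogaster* were followed along the third instar larval midgut through 10 members: *Hsp22*, *Hsp23*, *Hsp26*, *Hsp27*, *Hsp67Bc*, *Hsp70Aa*, *Hsp70Ab*, *Hsp68*, *Hsp83* and *Hsp60*. They were selected by gene name, with no threshold on their values, and all 10 were present among the 14207 named entries of the expression table. The table holds FPKM (mapped fragments normalized to exon length and to the size of the library) from unstranded RNA-seq of 8 midgut subsections with 1 library each. From front to back these were M1, M2 and M3–5 (anterior midgut), M6 and M7–8 (middle midgut), then M9, M10–11 and M12–13 (posterior midgut). Every library carried the strain label w1118. The dissected larvae came from a cross of a line with *GAL4* under the promoter of *Cyp4d2* to w1118 flies with a UAS-*GFP*.nls transgene. All 8 subsections thus carried both transgenes, but the fluorescence that guided the dissection was in M2, M4, M6, M9 and M12–13 only. Transgene expression therefore differed between subsections. The study names an effect of GAL4 or GFP on some genes as a theoretical possibility that it could not check, and none was tested here. Larvae were feeding, were raised on standard cornmeal-dextrose medium and were given no heat shock or other treatment that the sources describe. Each library pooled tissue from many larvae, and with a single library of each there was no replicate: no difference between subsections could be tested, and values have no error over larvae.

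Heat shock proteins are molecular chaperones that bind unfolded proteins and help them to fold, to be held in solution or to be degraded. In flies, heat and other stress that damages proteins activate the transcription factor Hsf, which induces the *Hsp70* copies, *Hsp68* and several small heat shock genes from low levels. *Hsp83*, the cytosolic Hsp90, and *Hsp60*, the chaperonin of the mitochondrial matrix, are abundant in unstressed cells, and small heat shock genes are also expressed in some tissues during normal development.

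The small heat shock and *Hsp70* members other than *Hsp22* were highest in M6, the section of the acid-secreting copper cells. With no limit on expression, 6 of the 10 members were at least 2-fold higher in M6 than the mean of the other 7 subsections on the log2(FPKM + 1) scale, and 3.75% of the 14207 entries were. These 6 were *Hsp23*, *Hsp26*, *Hsp27*, *Hsp67Bc*, *Hsp70Aa* and *Hsp70Ab*, the last of which is a near-identical copy of *Hsp70Aa*. *Hsp60* was lower in M6 by the same measure, and *Hsp22*, *Hsp68* and *Hsp83* did not reach a 2-fold difference in either direction. The difference on this scale between a subsection and the mean of the other 7 is called its deviation below. A gene was called higher or lower where the deviation reached 1 in size, and the scale understates the differences of low genes.

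**Figure D1:**
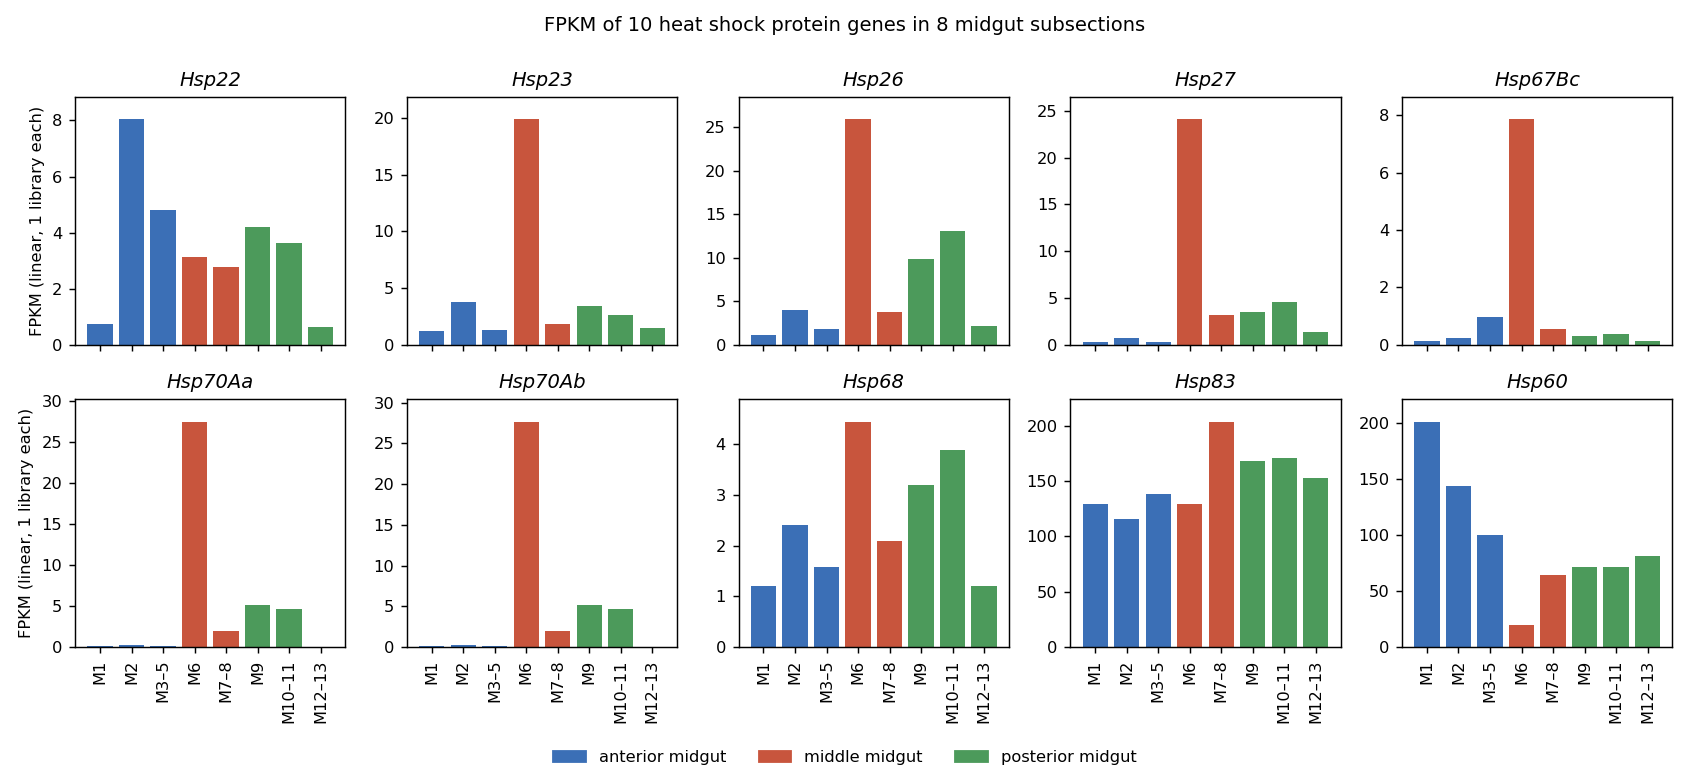
FPKM (linear axes, each starting at 0) of the 10 heat shock protein genes in the 8 midgut subsections, from anterior to posterior; each bar is 1 library, and the colours mark the anterior, middle and posterior midgut. The M6 bar is the highest for 7 members, *Hsp22* is highest in M2 at 8.05 FPKM, *Hsp83* in M7–8 at 204 FPKM and *Hsp60* in M1 at 201 FPKM.

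The libraries were not equal in depth or composition. The M6 library was the shallowest, with a depth of 17 beside 35 to 38 for the others in units of 1000000 reads, and M6 RNA was described as prone to degradation. Read counts were not used here, and how many reads a given FPKM rests on is unknown. The summed FPKM ranged from 542365 in M12–13 to 1806163 in M2, and 6764 (M2) to 7360 (M7–8) entries exceeded 1 FPKM. Genes with a mean FPKM above 3 had a median deviation of −0.50 in M6. This became −0.11 after rescaling to equal sums and −0.12 after dividing by the median ratio, so an M6 deviation is best read against that shift. Of the 8 genes listed as gut markers, those named for the copper cell section were highest in M6, the proton pump subunit *Vha100-4* at 632 FPKM (44.2 in M3–5) and the homeotic gene *labial* (*lab*) at 32.9. The others were not: the trypsin genes *alphaTry*, *betaTry* and *epsilonTry* and *mex1* were highest in the anterior midgut, *Myo31DF* was at 89.6 to 171 FPKM throughout, and *Cad99C* was at 0.0792 FPKM or less. Still, *alphaTry* was at 2460 FPKM in M6 (22903 in M1) and *betaTry* at 2140 (15857 in M2). Their M6 deviations were 3.24 and 3.74. Of 7 gut markers with a mean FPKM above 3, 4 were called higher in M6. A gene called higher in M6 can thus be far below its maximum there. All 7 visceral muscle markers were above 0 in M6, with a summed level lowest in M6 (436 FPKM) and highest in M12–13 (1511 FPKM). The hemocyte markers (4 of 6 in the table) summed to 0.107 in M6 and at most 0.988 elsewhere, the 7 salivary gland markers to 0.400 in M6 with 4 of them at 0, and the 6 fat body markers to 1.17 in M6 and 35.3 in M1. The part of depth, RNA quality and cell composition in the M6 values was not tested. In tissue of mixed cells, a larger share of cells of a type and more RNA per cell cannot be told apart.

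Among the Hsp70 members, *Hsp70Aa* (FBgn0013275) and *Hsp70Ab* (FBgn0013276) encode the major heat-induced chaperone, which cycles ATP to bind and release exposed hydrophobic segments. Both lie on 3R, at 7779885 to 7782266 and 7784257 to 7788527 of genome release 5, the latter interval being a bundle that Cuffdiff shared with *CG3281*. *Hsp70Aa* was at 0.195, 0.213 and 0.147 FPKM in M1, M2 and M3–5, 27.5 in M6, 1.93 in M7–8, and 5.14, 4.66 and 0.0622 in M9, M10–11 and M12–13. It thus had 3 levels along the gut: near 0 in the anterior midgut and at the posterior end, a few FPKM in M7–8, M9 and M10–11, and its maximum in M6, 5.35 times the M9 value. The M6 deviation was 3.76, the 64th highest of 6084 genes with a mean FPKM above 3. *Hsp70Ab* followed it within 1.14% in every library, with 27.7 FPKM in M6 and 5.16 in M9. These genes are near-identical copies, and reads that match both were divided between them by Cuffdiff's multiread correction, so they are not separate observations. Counts of members nevertheless include both.

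The Hsp70 reads could also be shared with the 4 *Hsp70B* copies, *Hsp70Ba*, *Hsp70Bb*, *Hsp70Bbb* and *Hsp70Bc*, which lie elsewhere on 3R. In M6 the B copies were at 8.01 to 8.79 FPKM each, and their M6 deviations ranged from 2.10 to 2.46. All 6 copies summed to 0.709, 1.03 and 1.59 FPKM in M1, M2 and M3–5, 88.8 in M6, 7.02 in M7–8, and 17.3, 16.2 and 11.0 in M9, M10–11 and M12–13. The sum, which depends little on how reads were split among the copies, was 5.13 times as high in M6 as in M9. It differed from the A copies alone in M12–13. There the A copies summed to 0.125 FPKM, 1.13% of the 6-copy sum, whereas they held 55.4% to 62.1% of it in M6, M7–8, M9 and M10–11 and 18.5% in M3–5. In M12–13 *Hsp70Bb* alone was at 5.12 FPKM, and the other 3 copies were at 1.83 to 2.03. The low M12–13 value of *Hsp70Aa* and *Hsp70Ab* is therefore not a low level of *Hsp70* transcripts as a group, and the split between A and B copies is uncertain.

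**Figure D2:**
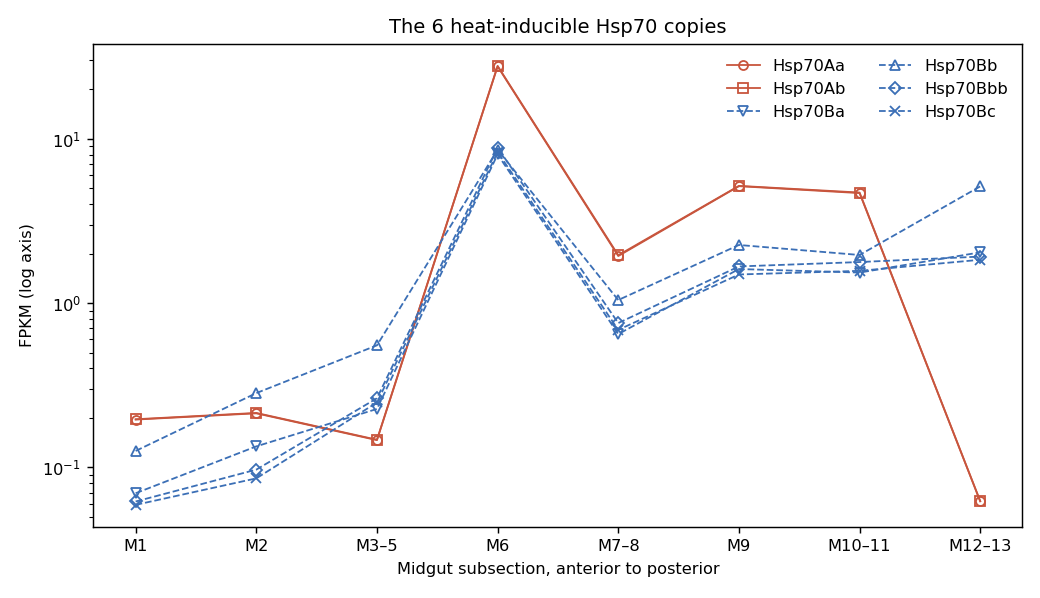
FPKM on a log axis of the 6 heat-inducible *Hsp70* copies in the 8 midgut subsections, 1 library each; red lines are the 2 A copies, which overlie each other, and blue dashed lines are the 4 B copies. All 6 peak in M6 (27.5 and 27.7 FPKM for the A copies, 8.01 to 8.79 for the B copies), and the A copies drop to 0.0622 and 0.0624 in M12–13 where the B copies stay between 1.83 and 5.12.

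*Hsp68* (FBgn0001230; 3R, 19880113 to 19883032, in a bundle with *CG6000*) encodes a further heat-inducible Hsp70 protein. It was at 1.21, 2.41 and 1.58 FPKM in M1, M2 and M3–5, 4.44 in M6, 2.10 in M7–8, and 3.20, 3.89 and 1.20 in M9, M10–11 and M12–13. M6 was highest by a factor of only 1.14 over M10–11. The deviation of 0.81 was below the limit and passed it after rescaling to equal sums (1.17), after dividing by the median ratio (1.16) and with the length trend removed (1.22).

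The small heat shock proteins assemble into oligomers that hold unfolding proteins until ATP-dependent chaperones act on them. The 5 members lie together on 3L, between 9364611 (*Hsp67Bc*) and 9378382 (*Hsp27*). *Hsp27* (FBgn0001226; 9377163 to 9378382), whose product is found in the nucleus and whose gene also responds to ecdysone, was at 0.326, 0.725 and 0.311 FPKM in M1, M2 and M3–5, 24.1 in M6, 3.16 in M7–8, and 3.49, 4.53 and 1.41 in M9, M10–11 and M12–13. Its M6 value was 5.32 times the next highest, and its deviation of 3.29 ranked 83rd of 6084. *Hsp23* (FBgn0001224; 9374982 to 9375865), a cytosolic protein, was at 1.24, 3.74 and 1.32 FPKM in the 3 anterior subsections, 19.9 in M6, 1.86 in M7–8, and 3.40, 2.66 and 1.44 in M9, M10–11 and M12–13. Its second highest value was in M2, not in the posterior midgut, and M6 was 5.33 times that value (deviation 2.75).

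*Hsp26* (FBgn0001225; 9369518 to 9370475), also cytosolic, was at 1.12, 3.99 and 1.83 FPKM in M1, M2 and M3–5, 25.9 in M6, 3.72 in M7–8, and 9.86, 13.1 and 2.12 in M9, M10–11 and M12–13. In M9 and M10–11 it was higher than any other small heat shock or *Hsp70* member, and its M6 value (deviation 2.46) was 1.98 times that of M10–11. *Hsp67Bc* (FBgn0001229; 9364611 to 9365597), whose product takes part with starvin in protein quality control, was at 0.130, 0.222 and 0.966 FPKM in M1, M2 and M3–5, 7.86 in M6, 0.536 in M7–8, and 0.288, 0.380 and 0.145 in M9, M10–11 and M12–13. It stayed below 1 FPKM in all subsections but M6, where it was 8.13 times its next value (deviation 2.71). Its mean of 1.32 FPKM, like the 2.50 of *Hsp68*, was below the limit of 3.

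*Hsp22* (FBgn0001223; 9365822 to 9368064, in a bundle with *Hsp67Bb*), a small heat shock protein of the mitochondrial matrix, had another pattern. It was at 0.725, 8.05 and 4.82 FPKM in M1, M2 and M3–5, 3.14 in M6, 2.78 in M7–8, and 4.21, 3.62 and 0.638 in M9, M10–11 and M12–13. It was highest in M2 and lowest at both ends of the midgut, and its M6 deviation was 0.09. Cuffdiff gave *Hsp22*, alone among the members, a low-data status in all 8 libraries. Among small heat shock genes outside the members, 2 of the 7 in the table had a mean FPKM above 3. *l(2)efl*, the most abundant, was lowest in M6 (169 FPKM, deviation −0.70, mean 269), and *CG14207*, at 40.6 FPKM in M6 against 203 and 207 in M1 and M2, was called lower in M6 (−1.26) and higher in the anterior midgut (1.32, or 0.12 after rescaling to equal sums). *Hsp67Bb* was at 2.96 FPKM in M6 (deviation 1.12), and *Hsp67Ba* was at 0.0760 FPKM or less in every library.

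*Hsp83* (FBgn0001233; 3L, 3192969 to 3197631, in a bundle with *CG14966*) was the most even member. It was at 129, 116 and 138 FPKM in M1, M2 and M3–5, 129 in M6, 204 in M7–8, and 168, 171 and 153 in M9, M10–11 and M12–13, a span of 1.76-fold. Its M6 deviation of −0.23 turned positive with other scalings (0.23 for equal sums, 0.20 for the median ratio) and with the length trend removed (0.08), so M6 has no stable direction for *Hsp83*. Within each library it exceeded 93.0% to 97.0% of all entries. *Hop* and *Cdc37*, cochaperones of Hsp90, had M6 deviations of 0.01 and 0.07.

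*Hsp60* (FBgn0015245; X, 11002515 to 11006341) ran against the members highest in M6. It was at 201, 143 and 99.9 FPKM in M1, M2 and M3–5, 19.5 in M6, 64.1 in M7–8, and 71.3, 71.1 and 81.5 in M9, M10–11 and M12–13. The level was highest at the anterior end and lowest in M6, a 10.3-fold span. Its M6 deviation was −2.25, the 483rd lowest of 6084 genes, and stayed between −1.87 and −1.81 with both rescalings and with the length trend removed. The other mitochondrial chaperones with a mean FPKM above 3 (2 of 6 in the table), *CG11267* and the GrpE-like *Roe1*, were both called lower in M6 (−1.11 and −1.87). *CG11267* was at 266 FPKM in M1 and 55.3 in M6. *Hsc70-5*, the mitochondrial Hsp70, was lower there too (22.8 FPKM, −1.36), as was *Trap1*, the mitochondrial Hsp90 (6.79 FPKM, −1.43). Being lower in M6 was common, since 26.9% of the 6084 genes were called so and 1 of the 8 members with a mean FPKM above 3 was.

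**Figure D3:**
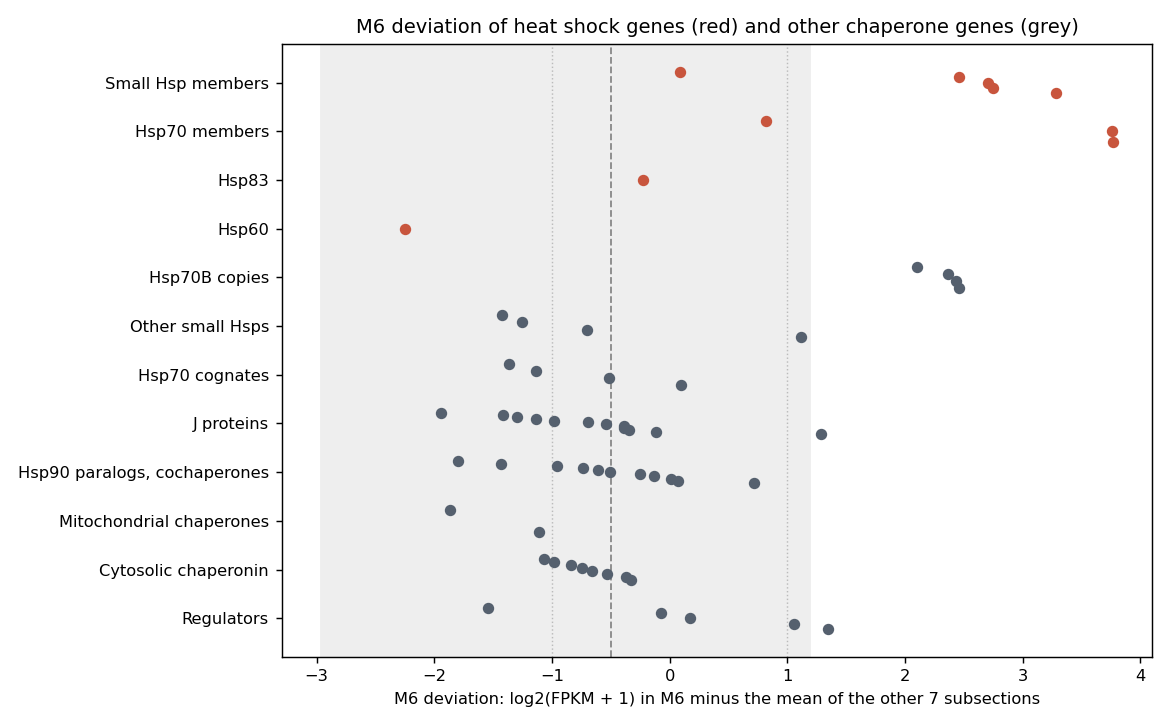
M6 deviation (log2(FPKM + 1) of M6 less the mean over the other 7 subsections) of the 10 heat shock members (red) and of other chaperone genes with a mean FPKM of at least 1 (grey), by group; the grey band spans the 5th to 95th percentile of 6084 genes (−2.96 to 1.19), the dashed line is their median (−0.50) and dotted lines mark ±1. The 6 members called higher and the 4 *Hsp70B* copies lie to the right of the band, and of the other chaperone genes only *mrj* (1.28) and *HIP* (1.35) do.

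The limit on mean FPKM shaped the count of members called. Of the 10 members, 8 had a mean above 3, and without M6 only *Hsp22*, *Hsp26*, *Hsp83* and *Hsp60* did: *Hsp23*, *Hsp27*, *Hsp70Aa* and *Hsp70Ab* passed only through the section in which they were high. With the limit, 5 of the 8 were called higher in M6, beside 6.15% of 6084 genes, and the share has to be read with that in mind. Where the limit was set on the mean of the other 7 subsections instead, a choice made after the values were seen, 4 members were left and 1 of them, *Hsp26*, was called higher, beside 5.63% of 6093 genes. Among genes with a mean of 1 to 10 FPKM, chosen likewise, 6 of 8 members and 5.76% of 3440 genes were called, and *Hsp67Bc*, 1 of the 6, came into that range only through M6 (its mean over the other 7 was 0.381 FPKM). The median M6 deviation was 2.61 over the 8 members with a mean above 3, beside −0.50 over the 6084 genes with the same limit. It was 2.58 over all 10 members with no limit, and −0.26 over the 3440 genes with a mean of 1 to 10 FPKM.

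M6 held the highest value for 7 of the 10 members. Of the 8 with a mean above 3 it did so for 5, beside 7.36% of the 6084 genes, and it held the lowest value for 1, beside 43.2%. Of those 5, only *Hsp26* passed the limit without M6. Cuffdiff's 95% intervals, which rest on dispersion estimated without replicates, began at 0 for all 80 member values, so every pair of intervals of a member overlapped. As a one-sided description chosen after the values were seen, the M6 value of 5 members lay above the upper bounds of all other subsections, as did that of 1.79% of the 14207 entries. These were *Hsp23* (19.9 against a highest upper bound of 11.4), *Hsp27* (24.1 against 10.8), *Hsp67Bc* (7.86 against 2.77), *Hsp70Aa* (27.5 against 11.5) and *Hsp70Ab* (27.7 against 12.3). *Hsp26* was not among them, at 25.9 against 29.5.

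Percentiles within a library, and ratios of FPKM with nothing added, do not depend on how libraries were scaled to each other. *Hsp70Aa* exceeded 89.1% of all entries in M6 and between 33.6% (M12–13) and 64.8% (M9) of them elsewhere. *Hsp27* exceeded 88.0% in M6 and 43.2% to 63.2% elsewhere, and *Hsp26* 88.6% and 52.8% to 76.8%. *Hsp60* went the other way, from 92.6% to 95.1% in the other subsections to 86.1% in M6. *Hsp67Bc* exceeded 75.4% in M6 and at most 50.9% elsewhere. In M6, *Hsp23*, *Hsp26*, *Hsp27*, *Hsp70Aa* and *Hsp70Ab* thus had ranks near that of *Hsp60*, whereas *Hsp68* exceeded 67.6% of entries there.

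**Figure D4:**
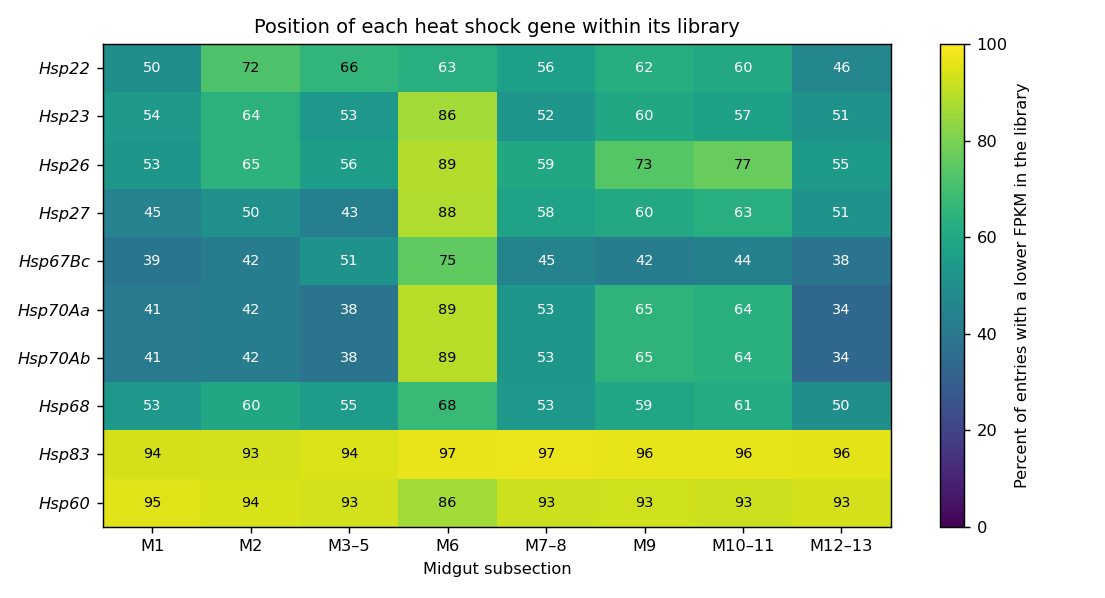
Percent of the 14207 named entries with a lower FPKM in the same library, for each of the 10 members (rows) in the 8 subsections (columns), 1 library each; colour runs from 0 to 100. *Hsp83* and *Hsp60* stay above 86 in every column, and *Hsp23*, *Hsp26*, *Hsp27*, *Hsp70Aa* and *Hsp70Ab* come to 86.3 to 89.2 in M6 only.

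Relative to *Hsp83* in the same library, as a log2 ratio of FPKM with no pseudocount, *Hsp70Aa* was at −2.23 in M6, 2.80 above its highest value elsewhere. The corresponding excess of M6 over the highest other ratio was 3.12 for *Hsp67Bc*, 2.82 for *Hsp27*, 2.25 for *Hsp23*, 1.39 for *Hsp26* and 0.60 for *Hsp68*. With 1 added to each FPKM, a scale on which low values depend on the scaling, it was 2.59 for *Hsp70Aa* and 2.27 for *Hsp67Bc*. *Hsp60* was above *Hsp83* in M1 (0.64) and M2 (0.31) and below it in the other subsections, most so in M6 (−2.73). As shares of the summed FPKM of the 10 genes, *Hsp60* held 59.9% in M1 and 6.74% in M6, and *Hsp83* between 38.5% in M1 and 71.3% in M7–8. The other 8 members together held 48.6% in M6 (140.5 FPKM) and from 1.53% in M1 (5.15 FPKM) to 13.4% in M10–11 (37.5 FPKM) elsewhere.

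Outside M6, the posterior midgut was not uniform. M9 and M10–11 were both above all 3 anterior subsections for 6 of the 10 members, namely *Hsp26*, *Hsp27*, *Hsp68*, *Hsp70Aa*, *Hsp70Ab* and *Hsp83*; of members with a mean FPKM above 3 this held for 5 of 8, beside 35.6% of genes. M12–13 was below both M9 and M10–11 for 9 of the 10, all but *Hsp60*, and for 7 of the 8 beside 42.6% of genes. Both comparisons were chosen after the values were seen, and the second holds for a large share of all genes. Of the 8, *Hsp23*, *Hsp27*, *Hsp70Aa* and *Hsp70Ab* passed the limit only through M6, and the *Hsp70* A copies are not separate observations.

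The anterior minus posterior difference was the mean of log2(FPKM + 1) over M1, M2 and M3–5 minus that over M9, M10–11 and M12–13. It was negative for 7 of the 10 members. The share of all genes with a negative difference was not computed. The median difference was 0.21 over the 6084 genes and −0.23 over the 3440 genes with a mean of 1 to 10 FPKM. Among members, the difference reached −1 for *Hsp26* (−1.33), *Hsp27* (−1.44), *Hsp70Aa* and *Hsp70Ab* (both −1.49). Without M10–11 *Hsp26* was at −0.90, no longer called, and without M12–13 the values were −1.99 for *Hsp26*, −2.31 for *Hsp70Aa* and −2.32 for *Hsp70Ab*. *Hsp27*, *Hsp70Aa* and *Hsp70Ab* passed the limit on mean FPKM only through M6. As deposited, 4 of the 8 members with a mean FPKM above 3 were called lower in the anterior midgut, beside 19.6% of genes. None of the 8 was called higher there, beside 24.0% of genes. *Hsp60* came closest, with 0.93, but fell to −0.27 after rescaling to equal sums, a setting that moved the median of all genes from 0.21 to −0.88 and made the difference negative for all 10 members. Of the 8 with a mean above 3, 6 were then called lower, beside 47.8% of 6332 genes. The differences of *Hsp22* (0.40) and *Hsp67Bc* (0.14) changed sign with the same setting, to −0.38 and −0.11. *Hsp22* also ran from −0.13 without M12–13 to 1.09 without M1, and *Hsp67Bc* was at −0.11 without M3–5, so neither had a stable direction. The difference varied with transcript length across genes (Spearman's rho −0.70, genes not being independent), and the members' transcripts ran from 866.5 bases (*Hsp23*) to 2836.5 (*Hsp83*). With the length trend removed, the differences were −2.29 for *Hsp26*, −1.94 for *Hsp27*, −1.31 for *Hsp23* and −1.21 for *Hsp70Aa*, *Hsp60* was at 1.18, and *Hsp83* (from −0.36 to 0.21), *Hsp22* (to −0.09) and *Hsp67Bc* (to −0.82) changed sign.

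**Figure D5:**
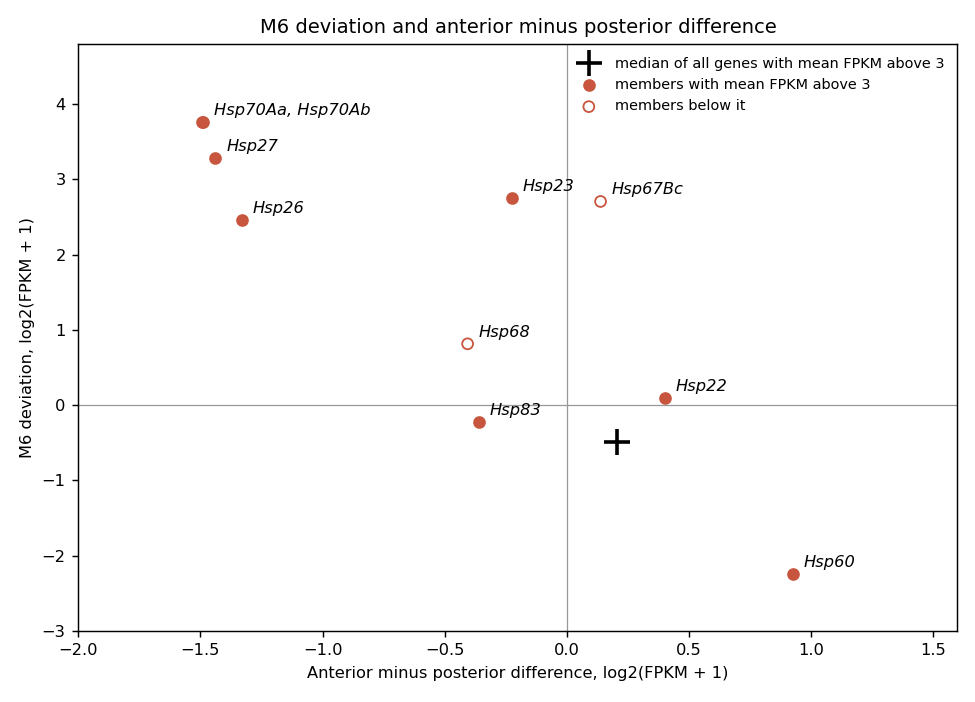
M6 deviation (vertical) against the anterior minus posterior difference (horizontal) of the 10 members, both on the log2(FPKM + 1) scale; filled points have a mean FPKM above 3, open points do not, and the cross marks the medians of the 6084 genes (0.21, −0.50). *Hsp26*, *Hsp27*, *Hsp70Aa* and *Hsp70Ab* lie at the upper left, high in M6 and low in the anterior midgut, and *Hsp60* lies at the lower right.

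Deviations were also taken for single subsections other than M6, and for genes high in M6 these rest in part on M6. In M1, 5 of the 8 members were called lower (*Hsp22*, *Hsp26*, *Hsp27*, *Hsp70Aa* and *Hsp70Ab*), beside 11.3% of genes, and 1 was called higher (*Hsp60*, 1.53), beside 19.7%. In M2, 3 were called lower (*Hsp27*, *Hsp70Aa* and *Hsp70Ab*), beside 14.7%, and *Hsp22* was called higher (1.38), beside 21.1%. In M3–5, 4 were called lower, these 3 and *Hsp26*, beside 9.04%. Since M6 enters the mean of the other 7, a gene high in M6 is pulled toward a negative deviation elsewhere. The lower calls of *Hsp26*, *Hsp27*, *Hsp70Aa* and *Hsp70Ab* were not recomputed without M6. They do not show a low level apart from that pull. Few of the genes set beside them share it, since 6.15% were called higher in M6. In spite of that pull, *Hsp70Aa* and *Hsp70Ab* were called higher in M9 (both 1.23), beside 8.28% of genes, and with *Hsp26* (1.39) in M10–11, where 9.55% were. In M12–13, 4 members were called lower (*Hsp22*, *Hsp26*, *Hsp70Aa* and *Hsp70Ab*), beside 7.03%; the calls of the *Hsp70* members rest on the uncertain split of reads, since the 6-copy sum in M12–13 (11.0 FPKM) was above that in M1, M2, M3–5 and M7–8. The range from the lowest to the highest subsection reached 2 on the log2 scale for 7 of the 8 members, beside 39.8% of genes, with the largest value for *Hsp70Ab* (4.75) and the smallest for *Hsp83* (0.81). Of the 7, *Hsp23*, *Hsp27*, *Hsp70Aa* and *Hsp70Ab* passed the limit on mean FPKM only through M6, where they were high. A wide range was thus favoured by the limit itself. Without M6, 5 of the same 8 members reached a range of 2, namely *Hsp22*, *Hsp26*, *Hsp27*, *Hsp70Aa* and *Hsp70Ab*. The limit was still taken with M6, through which alone the last 3 passed it. The share of all genes without M6 was not computed. *Hsp23*, *Hsp27*, *Hsp70Aa* and *Hsp70Ab* also enter the other counts out of 8 in this paragraph.

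The members varied together in part. Over the 8 subsections, which share libraries, depth and scaling, 10 of the 28 pairs of members with a mean FPKM above 3 had a Pearson r of at least 0.8 on the log2 scale. The number was 7 without M6, and 7 pairs had a Spearman's rho of at least 0.8. All 3 numbers count the *Hsp70* A copies as separate genes. They include the pair of these copies (r = 0.999999), and pairs of *Hsp70Ab* that repeat those of *Hsp70Aa*. Each of the 10 pairs holds *Hsp23*, *Hsp27*, *Hsp70Aa* or *Hsp70Ab*, which passed the limit on mean FPKM only through M6. Likeness through M6 was thus favoured by the limit. The 7 pairs without M6 include *Hsp27* and *Hsp83*, at r = 0.19 with M6 and 0.82 without it. The share of all gene pairs that reach 0.8 was not computed. *Hsp27* and *Hsp70Aa* had r = 0.96 and rho = 0.83 (r = 0.90 without M6) and *Hsp26* and *Hsp70Aa* 0.94 (0.91), whereas *Hsp23* and *Hsp27* went from 0.86 to 0.48. *Hsp60* had a negative r with all others, from −0.94 with *Hsp27* (−0.82 without M6) to −0.11 with *Hsp22*, for which rho was positive (0.14). Its r with *Hsp23* went from −0.80 to −0.21 without M6. Among the 6084 genes, those most like *Hsp70Aa* and *Hsp70Ab* over the 8 subsections, apart from each other, were *prtp*, which encodes a protein of the endoplasmic reticulum (r = 0.96 for both), and *Hsp27*. Those most like *Hsp27* were *prtp* (0.98), *CG5059* (0.97) and *Sbp2*, for a protein that binds selenocysteine insertion elements (0.97). *prtp* was at 301 FPKM in M6 and 98.8 to 176 elsewhere, and *CG5059* at 302 in M6 and 31.7 to 96.2 elsewhere.

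In the other chaperone families, as among all genes, few genes were called higher in M6. Over the 6084 genes, 6.15% were called higher there and 26.9% lower, and the counts of these families are read beside those shares. Of the Hsp70 cognates, which are expressed without stress, 4 of 6 had a mean FPKM above 3, none was called higher in M6 and 2 were called lower, *Hsc70-5* and *Hsc70-3*, the Hsp70 of the endoplasmic reticulum (59.7 FPKM in M6, deviation −1.14). *Hsc70-4*, the main cytosolic cognate, was the most abundant, with 455 to 674 FPKM and 614 in M6 (deviation 0.09), and had a failed quantification status in at least 1 library. Of 15 J proteins, which deliver substrates to Hsp70, 12 had a mean above 3, with *Droj2* (77.4 FPKM) and *Tpr2* (63.1 FPKM) the most abundant by mean. Of these, 1 was called higher, *mrj* (8.24 to 23.2 FPKM outside M6, deviation 1.28), and 4 lower, *P58IPK* (−1.94), *CG4164* (−1.41), *CG5001* (−1.30) and *l(2)tid* (−1.14). *DnaJ-1*, a heat-induced J protein, was at 28.5 FPKM in M6 and highest in M10–11 (62.8).

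Of 11 Hsp90 paralogs and cochaperones, of which *Gp93* (mean 110.7 FPKM) and *CG16817* (107 FPKM) were the most abundant, none was called higher in M6 and 2 were called lower, *Trap1* and *Gp93* itself, the Hsp90 of the endoplasmic reticulum (−1.80). Of 8 subunits of the cytosolic chaperonin, none was called higher and 1 was called lower (*Cct5*, the most abundant, −1.07). In the anterior minus posterior difference, *Dpit47* (1.25), *Sgt* (1.21), the chaperonin subunit *CG5525* (1.20) and *Roe1* (1.08) were called higher and *Hsc70-3* lower (−1.07). After rescaling to equal sums none of these 4 was called higher, with values of 0.14, 0.02, 0.02 and, changed in sign, −0.10. Of 5 regulators, *CG5446* had the highest mean (49.1 FPKM, M6 deviation 0.18). *HIP* (28.6 FPKM in M6, 1.35) and *HIP-R* (27.9 FPKM, 1.06), which encode Hsc70-interacting proteins and are similar neighbouring copies that could share reads, were called higher. *stv*, the gene of the cochaperone starvin, was called lower (−1.55), with 10.9 FPKM in M6 against 65.4 in M9 and 73.1 in M10–11, and it had a failed status in at least 1 library. *Hsf* itself ranged from 6.66 to 12.5 FPKM and was at 9.22 in M6, with a deviation of −0.07 that became 0.33 and 0.32 with the rescalings. The calls in these families depended in part on the scaling. With both rescalings *mrj*, *HIP* and *HIP-R* were still called higher in M6, and *P58IPK*, *Gp93*, *Trap1*, *Roe1* and *stv* lower. *CG14207*, *Hsc70-3*, *Hsc70-5*, *CG5001*, *l(2)tid*, *CG11267* and *Cct5* kept a negative deviation that no longer reached −1 with either, as did *CG4164* with equal sums (−0.98). The cochaperone gene *nudC*, with a deviation of 0.72 as deposited and a failed status in at least 1 library, reached 1.17 and 1.13.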

How the data were processed

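RNA-seq of 8 midgut subsections, 1 library each, was analysed from the deposited table. Low-quality reads were removed with PRINSEQ, and the others were mapped to the annotated genome (FlyBase release 5) with Bowtie and TopHat. The authors computed the deposited FPKM values with Cuffdiff, using upper-quartile normalization, multiread correction, fragment bias correction and blind dispersion. Per the study's methods, depth was 35 to 38 in units of 1000000 single-end reads of 38 bp, and 17 for M6. The submitters' processing notes name TopHat2 2.0.6 and Cuffdiff 2.0.2. The table also holds 95% interval bounds and a status for each value. FPKM values were used as deposited, and 1 unnamed entry was left out. Authors' comparisons and counts were not used here.

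Differences were computed on log2(FPKM + 1) and called at 1 (2-fold), ranges at 2, over genes with a mean FPKM above 3. With 1 library per subsection no test was made. Alternatives were a pseudocount of 0.1, a mean limit of 10 or none, a 1.5-fold limit, dividing each library by its median ratio to the genes' geometric means or setting all sums to 1000000 FPKM, removal of entries with a status other than OK (143), each subsection left out in turn, and removal of a lowess trend (share 0.3) on transcript length. Lengths were medians over transcripts of a later annotation, joined by identifier for 13635 entries. Limits on the mean of the other 7 subsections or on means from 1 to 10, upper bounds, ratios with no pseudocount, sums of *Hsp70* copies, and the orders of M9, M10–11 and M12–13 were added after values were seen. Members and gene lists were chosen with earlier results of these data known. All 10 members are named. Of other lists, up to 4 of the highest by mean FPKM and those called are named where the list is given, as are gut markers. For the 3 members with the largest range, the 3 genes with the highest Pearson r are named. *Hsp67Ba*, *Hop*, *Cdc37*, *DnaJ-1*, *nudC* and *Hsf* were chosen after their values were seen. Positions are of release 5, with bundle starts, counted from 0 in the table, shifted to count from 1. Scripts used Python 3.11.15, numpy 2.4.6, pandas 2.3.3, statsmodels 0.14.6 and matplotlib 3.10.9 and were tested on simulated data. A search of promoters for heat shock elements was planned and not made.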

Additional observations from a re-analysis of the deposited data

How the results depend on the processing

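Of 228 gene values recomputed, 203 moved by less than 1.5-fold, 25 moved by more and none that was called changed sign. The count of members called higher in M6 stayed at 5 with the other pseudocount, both rescalings and any other subsection left out. It was also 5 with the length trend removed. The count of members highest in M6 was 7 with both rescalings. A pseudocount cannot change that count and leaving out another subsection cannot lower it, so those settings say nothing about it. Members called lower in the anterior midgut numbered 3 to 4 with a subsection left out (3 without M10–11). Limits on expression changed these results, by leaving fewer members: with a mean above 10, only *Hsp83* and *Hsp60* were left, with 0 members called higher in M6, 0 called lower in the anterior midgut, a median M6 deviation of −1.24 and a median anterior minus posterior difference of 0.28. With the mean of the other 7 subsections above 3, 1 member was called higher in M6 and the median M6 deviation was −0.070. After rescaling to equal sums the median anterior minus posterior difference was −1.68. With a mean of 1 to 10, 0 members were called lower in M6. The median M6 deviation was 3.29 with the length trend removed. The count called higher in the anterior midgut, 0 as deposited, was 1 with a 1.5-fold limit, 1 with the length trend removed, and 0 to 1 with a subsection left out (1 without M1 or M3–5). Members lowest in M6 numbered 1 to 2 with a subsection left out (2 without M2). Without M6, 5 members had a range of at least 2, with the limit on mean FPKM still taken with M6. Otherwise the cause was not tested. No paired analysis was possible because each subsection has 1 library. Depth, lowest in M6, limits the precision of low values.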
